A study of Mus musculus with 6 samples.

Results

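CM1 is the name that the authors' deposited cell annotation gives to one of 17 clusters of dissociated adult mouse heart cells profiled by Drop-seq, a droplet method that tags each captured transcript with a unique molecular identifier (UMI) so that molecules are counted once. Every cell carrying that cluster name was taken, which gave 1672 of 21706 cells. The same annotation names the cardiomyocyte clusters CM2 (747 cells) and CM3 (1032 cells), and CM1 was set against them within the same libraries. The tested genotype was YAP5SA, with strain Yap5SA+/tg; Myh6-MCM, and its control was Myh6-MCM alone; all mice were adult and all had been given tamoxifen. Myh6-MCM is a tamoxifen-activated Cre driven by the promoter of Myh6, a cardiomyocyte gene, so it was present in both genotypes and YAP5SA was confined by design to cells that use that promoter. Each genotype had 3 libraries. One came from cells enriched for cardiomyocytes and the others, called tissue libraries here, from dissociated heart tissue. CM1 held 182 cells in the YAP5SA enriched library, 34 in YAP5SA tissue-1 and 27 in YAP5SA tissue-2, against 537 in the Control enriched library, 312 in Control tissue-2 and 580 in Control tissue-3. Lists of 6 values below keep that order of libraries. The labels do not say how many hearts went into a library, so p-values measure the spread between these libraries.

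Ventricular cardiomyocytes shorten by sliding myosin thick filaments along actin thin filaments. Calcium released through the ryanodine receptor starts each beat, the sarcoplasmic pump takes it back, and most of the ATP comes from fatty acid oxidation and the respiratory chain. YAP is a transcriptional coactivator of the Hippo pathway. LATS kinases phosphorylate it and keep it out of the nucleus, where it would bind TEAD factors at DNA, and YAP5SA is a form that these kinases cannot phosphorylate. In the heart, YAP activity is known for its role in cardiomyocyte proliferation, and the study asked how cardiomyocytes respond to the active form.

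The 3 marker genes given for the cluster were at cardiomyocyte levels in it. With UMIs of the summed cells scaled to a common total (CPM), Tnni3, cardiac troponin I, reached 9658 CPM over all CM1 cells, and the highest value in a class of other heart cells was 863 CPM in endothelial cells. Tnnt2, cardiac troponin T, reached 21374 CPM in CM1 and at most 2017 CPM in another class. Myh6, the adult cardiac myosin heavy chain, reached 4606 CPM in CM1 and at most 769 CPM elsewhere. The label of cardiomyocytes was thus matched by its markers, which also took part in making the clusters and give no test.

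CM1 differed from its neighbours in depth in every library. The median CM1 cell had 6581, 4525.5 and 5416 UMIs in the YAP5SA libraries and 3516, 7752 and 8638.5 UMIs in the Control libraries. The median was 2.93 to 5.63 times that of CM2 and 2.20 to 3.44 times that of CM3. Any pair of libraries shared 0 to 2 cell barcodes. Control tissue-2 stood apart from the other Control libraries in many CM1 transcripts, among them Nppa, which encodes atrial natriuretic peptide, at 29803 CPM against 317 and 169 CPM in Control enriched and Control tissue-3; genotype results are therefore given with and without it. Gene annotations also differed between libraries: Egfp and Mruby2-2 were features of 4 libraries, and 1199 features present under a single annotation were not tested.

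TEAD factors bind a short motif known as M-CAT, read as CATTCC or, on the other strand, GGAATG. The windows below show it in promoters of genes that the results turn on: sarcomere genes of CM1, the YAP targets Ankrd1 and Crim1, and the stress genes Nppb and Acta1. They come from RefSeq promoter sequences on GRCm38.p6, searched over the 250 bases before the gene start; each line gives 26 bases, 5′ to 3′ on the gene's strand, with the motif in capitals.
Tnnt2, chr1:135836297-135836322: tcctgctgcaCATTCCtccctccgcg
Myh6, chr14:54966798-54966823: ttggggaggaGGAATGtgcccaagga
Myh7, chr14:54994812-54994837: agtgagccgtGGAATGttagagatat
Ankrd1, chr19:36120039-36120064: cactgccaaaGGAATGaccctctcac
Ankrd1, chr19:36119952-36119977: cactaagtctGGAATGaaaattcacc
Nppb, chr4:147985785-147985810: tcagccggcaGGAATGcagctgataa
Acta1, chr8:123894806-123894831: agggcagcaaCATTCCttcggggcgg
Crim1, chr17:78200159-78200184: ggcgggggggGGAATGaggtaggatg
The Tnnt2 motif began 27 bases before the gene start and the Acta1 motif 46 bases before it. Ankrd1 held the motif at 2 places, 210 and 123 bases before its start, and Tnni3 held none in this window. Tnnt2 and Myh7 each had 2 promoters and only 1 match, so 1 promoter of each lacked it. The genes were chosen by hand, and other YAP targets such as Ctgf and Tgfb2 are not shown. Of 32851 promoters in the table, 4153 (12.6%) held at least 1 match, so a match is common and is given here as a description of sequence only.

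Set beside the sum of CM2 and CM3, CM1 had less titin and other very long transcripts and more of many short ones. These contrasts are descriptions, because the cells were clustered on the same genes. Differences are means over the 6 libraries of log2 CPM (with 2 counts added before scaling) in CM1 minus the sum of CM2 and CM3, over 3447 genes with a mean log2 CPM of at least 5. By the rule of a mean difference of at least 1 with the same sign in every library, 11 genes (0.319%) were higher and 41 (1.19%) lower in CM1. Leaving out 1 library moved the count of higher genes: it was 4 without YAP5SA tissue-2, 31 without Control enriched, 22 without Control tissue-2 and 20 without YAP5SA enriched or without Control tissue-3, while the count of lower genes stayed between 39 and 54.

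Ttn, the giant spring of the sarcomere, was lowest relative to the other clusters. Its level in CM1 was 1801, 4513 and 3131 CPM in the YAP5SA libraries and 1939, 654 and 1079 CPM in the Control libraries. In CM3 it was 5645, 8284 and 12413 CPM in the YAP5SA libraries and 8008, 4727 and 5822 CPM in the Control libraries. CM1 was below CM3 in all 6 libraries, by a mean of 1.97 ± 0.68 on the log2 scale (SD, n = 6 libraries), whereas CM1 exceeded CM2 in 4 of 6. Flnc, an actin crosslinker of the Z-disc, had 145, 266 and 449 CPM in YAP5SA CM1 and 41.1, 173 and 32.1 CPM in Control CM1, and was lower in CM1 than in CM2 and CM3 together by 1.34 ± 0.37. Sptb, a spectrin, was lower in CM1 by 1.23 ± 0.33. Jph2, which ties the sarcoplasmic reticulum to the T-tubule, was lower by 1.19 ± 0.39. Flnc, Sptb and Jph2 were lower still against CM3 alone (by 1.73, 1.70 and 1.59), while Sptb exceeded CM2 in all 6 libraries. The mitochondrial ribosomal RNAs mt-Rnr2 and mt-Rnr1 were lower in CM1 by 1.15 ± 0.38 and 1.13 ± 0.40. Also among the 12 lowest were Abhd17c, Mfhas1, 1110002E22Rik, Ddb1 and Cpeb4, with means from -1.33 to -1.06. The Abhd17c difference was -2.59, -2.49 and -2.09 in the YAP5SA libraries but -0.56, -0.07 and -0.19 in the Control libraries. That of Mfhas1 was -3.17 in YAP5SA tissue-1 and -1.03 to -0.24 in the other libraries.

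The 12 genes highest in CM1 were Tsfm, a mitochondrial translation factor (1.43 ± 1.35), Gm10053, the lipid droplet gene Cidea (1.30 ± 1.44), Gm17257, the mitochondrial ribosomal protein gene Mrpl47, Sdr39u1, Gm15285 (1.11 ± 0.35), the cytokine gene Il15, Pyurf, Fabp3-ps1 (1.02 ± 0.41), the complex II assembly factor gene Sdhaf4 and the fat storage gene Fitm1 (0.99 ± 0.53). The wide errors came with thin counts: in YAP5SA tissue-2 the summed CM2 and CM3 cells had 0 UMIs of Tsfm, Gm10053, Cidea, Mrpl47 and Sdr39u1. Without that library, the mean difference was 0.92 for Tsfm, 0.68 for Gm10053, 0.72 for Cidea, 0.54 for Mrpl47 and 0.52 for Sdr39u1. The Sdhaf4 difference was 3.03 in YAP5SA tissue-1 and 0.22 to 0.89 in the other libraries, and that of Gm17257 was 3.15 in YAP5SA tissue-1 and 0.31 to 1.37 in the others. Fabp3-ps1 is a pseudogene of Fabp3 and may share reads with it, so its value is uncertain.

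**Figure D1:**
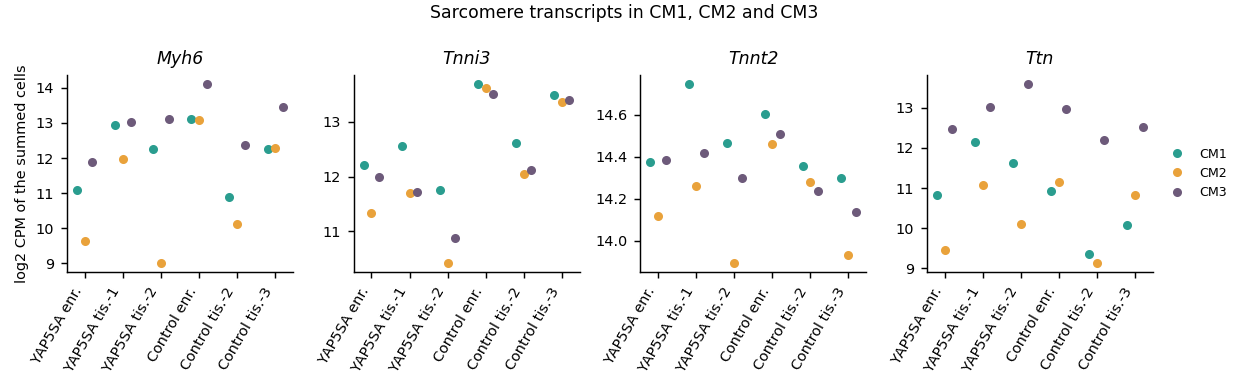
Level of 4 sarcomere transcripts (log2 CPM of the summed cells) in CM1, CM2 and CM3 of each library; each point is 1 cluster in 1 library. CM3 lies above CM1 for Ttn in all 6 libraries, and CM2 lies furthest below CM1 for Myh6 in YAP5SA tissue-2.

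The 3 marker genes separated the clusters in different ways. Myh6 had 2199, 7829 and 4911 CPM in YAP5SA CM1 and 8935, 1887 and 4886 CPM in Control CM1; its difference was -0.91 ± 0.47 against CM3, with CM1 lower in all 6 libraries, and 1.08 ± 1.21 against CM2. Tnni3 had 4753, 6050 and 3459 CPM in YAP5SA CM1 and 13333, 6273 and 11542 CPM in Control CM1, and exceeded CM2 and CM3 in all 6 libraries (0.53 ± 0.36 against the sum). Tnnt2 had 21230, 27541 and 22660 CPM in YAP5SA CM1 and 24922, 20941 and 20141 CPM in Control CM1, and its difference to the sum was 0.20 ± 0.11, higher in 6 of 6. Thus the long myosin transcript was lower than in CM3 while both troponins were slightly higher.

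The contrast with CM3 followed transcript length. Among 3339 genes with a length in the mouse reference annotation, the median difference of CM1 to CM3 fell from the shortest to the longest quintile of genes in each library. The shortest quintile exceeded the longest by 0.89, 1.19 and 1.26 log2 units in the YAP5SA libraries and by 0.98, 1.27 and 1.12 in the Control libraries. Spearman's rho across genes lay between -0.62 and -0.43; genes of 1 library share its cells and depth and are not replicates. Against CM2 the same gap was 0.0021, -0.34 and -0.25 in the YAP5SA libraries and 0.06, 0.07 and 0.05 in the Control libraries. The depth of CM1 cells exceeded that of CM3 cells in the same libraries, and its part in the length gradient was not tested.

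**Figure D2:**
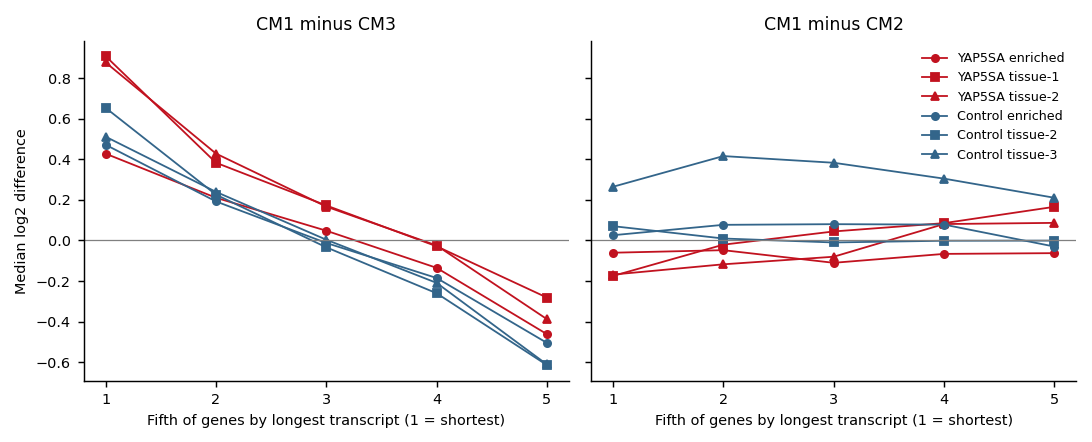
Median log2 difference of CM1 to CM3 (left) and of CM1 to CM2 (right) for genes in quintiles of longest transcript length, one line per library (red YAP5SA, blue Control). All 6 lines fall from left to right in the contrast with CM3, with gaps between the outer quintiles of 0.89 to 1.27, while those with CM2 stay between -0.17 and 0.42.

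Gene groups differed between the contrasts with CM3 and CM2. Against CM3, all 45 nuclear genes of the respiratory chain had positive means, with a median of 0.74 against 0.12 over all 3447 genes, and 3 passed the size rule; overall 139 genes (4.03%) were higher and 109 (3.16%) lower by that rule. Cox4i1 of complex IV was higher in CM1 by 0.74 ± 0.42 and Ndufa4 by 0.98 ± 0.41, each in 6 of 6 libraries. All 28 ribosomal protein genes were also positive against CM3 (median 0.48), with Rps14 at 0.75 ± 0.25. In the opposite direction, 9 of 11 genes of the thick filament and titin list were negative (median -0.84), 10 of 13 calcium cycling genes (median -0.49), 9 of 10 cardiac transcription factors (median -0.60) and 8 of 8 YAP targets (median -0.81). Of these lists the size rule was passed by 2, 2, 1 and 3 genes. The mitochondrially encoded list went against the nuclear respiratory chain genes, with 9 of 9 genes negative against CM3 (median -0.42) and 2 past the size rule. Ryr2, the ryanodine receptor, was lower than in CM3 by 1.30 ± 0.61, and Atp2a2, the sarcoplasmic calcium pump, by 0.63 ± 0.54. Crim1, a transmembrane YAP target, was lower by 1.22 ± 0.55 and Amotl2, an angiomotin-family YAP target, by 1.11 ± 0.40. Apart from the mitochondrially encoded list, these directions ran with the length gradient, where the difference was 0.67 in the shortest quintile and -0.48 in the longest. Longest transcripts were 765, 1232 and 987 bases for Cox4i1, Ndufa4 and Rps14. They were 16814, 5674, 5995 and 4427 bases for Ryr2, Atp2a2, Crim1 and Amotl2. The mitochondrially encoded mt-Nd1 and mt-Cytb were short, at 957 and 1144 bases, but lower in CM1. The part of length in the list differences was not tested.

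Against CM2, 87 genes (2.52%) were higher and 18 (0.522%) lower in CM1 by the size rule, and 408 of 3447 genes kept 1 sign in all 6 libraries. The size rule was passed by 1 of 11 thick filament and titin genes and 1 of 13 calcium cycling genes, both higher in CM1, but list medians differed between the genotypes. The median over the thick filament and titin list was 1.28, 1.23 and 1.49 in the YAP5SA libraries and 0.01, 0.22 and -0.02 in the Control libraries. For calcium cycling it was 1.19, 0.79 and 0.93 in the YAP5SA libraries and 0.05, 0.25 and 0.23 in the Control libraries. The cardiac transcription factor list showed no such gap, at -0.03, 0.46 and 0.22 in the YAP5SA libraries and 0.21, 0.11 and 0.29 in the Control libraries, and none of its 10 genes passed. Atp2a2 in CM1 was 1873, 4762 and 5002 CPM in YAP5SA libraries and 3861, 1232 and 3130 CPM in Control libraries; in CM2 it was 280, 1612 and 1196 CPM in YAP5SA and 3590, 662 and 2741 CPM in Control. Ribosomal protein genes ran the other way, with 27 of 28 lower in CM1 than in CM2 (median -0.34). Their median was -0.52, -0.68 and -0.68 in the YAP5SA libraries but -0.09, -0.08 and -0.05 in the Control libraries. The 1 ribosomal protein gene past the size rule was higher in CM1. The CM2 sums of the YAP5SA tissue libraries were thin, at 46540 and 35122 UMIs. That of YAP5SA enriched was 378950 UMIs, and those of the Control libraries were 182430, 117884 and 605297 UMIs.

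**Figure D3:**
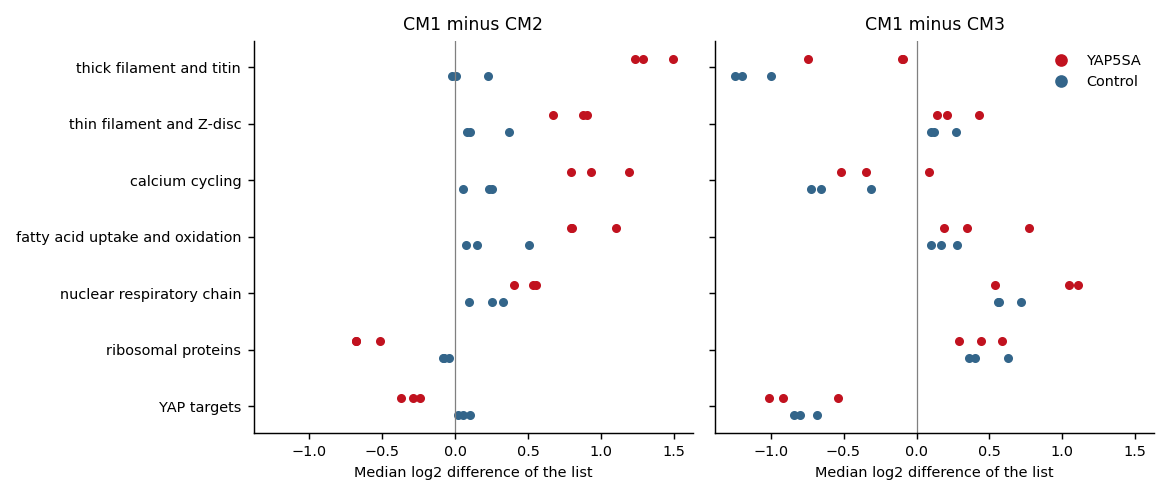
Median log2 difference of CM1 to CM2 and to CM3 over gene lists, in each library (red YAP5SA, blue Control). Nuclear respiratory chain genes lie above 0 throughout. Against CM2, the contractile and calcium lists lie between -0.02 and 0.37 in the Control libraries and between 0.67 and 1.49 in the YAP5SA libraries.

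CM1 made up a smaller share of the cardiomyocytes in YAP5SA hearts. Its share of the cells in CM1, CM2, CM3 and the YAP5SAcm cluster was 18.1%, 9.91% and 9.57% in the YAP5SA libraries and 50.3%, 54.2% and 49.4% in the Control libraries, so the groups did not overlap. The means were 12.5 ± 4.84% in YAP5SA and 51.3 ± 2.52% in Control (SD, n = 3 each), a difference of -38.8 percentage points with a two-sided exact permutation p of 0.167 within preparations, the smallest that 12 arrangements allow. Over CM1, CM2 and CM3 alone the means were 31.6% in YAP5SA and 53.7% in Control, and over cells with at least 1000 UMIs they were 14.4% in YAP5SA and 52.4% in Control. As a share of all cells, CM1 was 1.78 ± 1.92% in YAP5SA and 22.5 ± 14.2% in Control. The clusters were built from genes that themselves differ by genotype and the enriched and tissue preparations set part of the second share, so a lower share and a move of cells into another cluster cannot be told apart. The median mitochondrial percentage of CM1 cells was 10.2 ± 1.27% in YAP5SA and 10.9 ± 3.65% in Control (exact permutation p = 0.833).

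**Figure D4:**
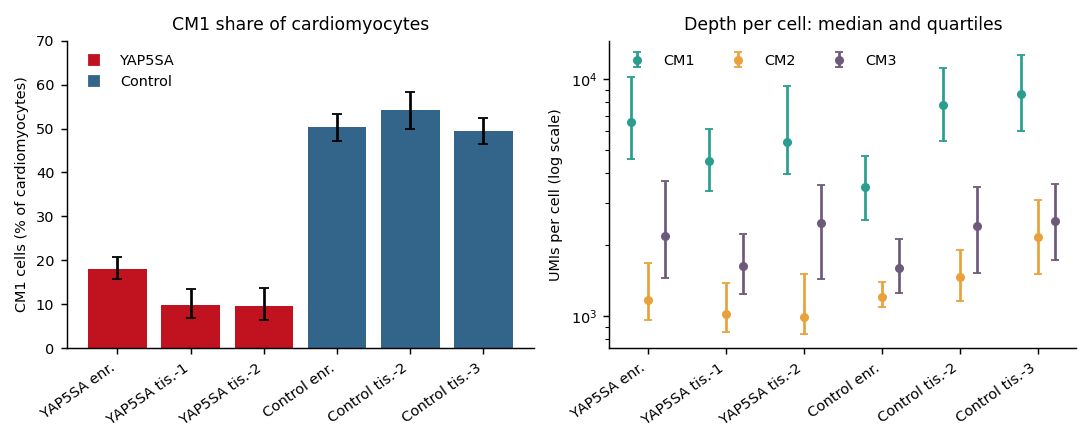
CM1 share of cardiomyocytes per library with exact 95% binomial intervals that cover counting error only (left), and UMIs per cell of CM1, CM2 and CM3 per library on a log scale, as medians with quartiles (right). The 3 YAP5SA shares lie between 9.57% and 18.1%, below the Control shares of 49.4% to 54.2%, and CM1 is the deepest cluster in every library.

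Within CM1, 2 genes were higher in YAP5SA than in Control over all 6 libraries and none was lower. The test was edgeR's quasi-likelihood test on UMI counts summed per library, with preparation as a covariate and Benjamini-Hochberg adjustment. Cells that the annotation placed in other clusters, YAP5SAcm among them, were not in it. Of 8216 genes tested, 2 passed upwards (0.0243%) and 0 downwards (0%); 1090 genes had an unadjusted p under 0.05, and DESeq2 called 71 higher and 22 lower. Leaving out Control tissue-2 alone brought the edgeR count to 358 higher (4.37%) and 436 lower (5.32%) of 8190, so the outcome rests on whether that library is used. Leaving out any other single library gave 0 to 2 calls. Control tissue-2 was set apart by its expression in these same data. P-values and counts of the fit without it are therefore descriptions and not tests. Fold changes are relative to the bulk of genes, whose median was 0.0026 under TMM scaling and 0.43 with library totals alone.

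Myl4, an atrial and fetal myosin light chain, had 141, 1821 and 3893 CPM in YAP5SA and 2.48, 62.9 and 30.3 CPM in Control. The groups did not overlap, and its log2 fold change was 5.50 ± 0.51 (SE, edgeR adjusted p = 0.00965). Mlana, a melanosome protein, had 16.1, 157 and 75.6 CPM in YAP5SA and 0, 0.364 and 0 CPM in Control, from 64 UMIs in YAP5SA and 1 UMI in Control. It passed the edgeR test (adjusted p = 0.00965), and the ratio of its summed levels was 373, with an exact counting interval of 64.6 to 14967. Mlana was seen in 13 of 182, 14 of 34 and 6 of 27 YAP5SA cells and in 0 of 537, 1 of 312 and 0 of 580 Control cells.

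The Myl4 call rested on few cells. Myl7, the atrial regulatory light chain, had at least 10 UMIs in 7 of 243 YAP5SA cells and 1 of 1429 Control cells, and the 7 cells held 1113 of the 1142 Myl7 UMIs of YAP5SA CM1. All 202 and 99 UMIs of Sln, the atrial sarcolipin gene, in YAP5SA tissue-1 and tissue-2 also lay in those cells. Without the 8 cells, an alternative chosen after seeing the data, Myl4 had 141, 184 and 29.1 CPM in YAP5SA and 2.48, 62.9 and 3.51 CPM in Control. Its log2 fold change was then 2.48 (edgeR adjusted p = 0.566), and Mlana was the single call (8.73, adjusted p = 0.0139).

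Other genes near the threshold did not pass over 6 libraries. Timp2, an inhibitor of matrix metalloproteinases, had 128, 339 and 333 CPM in YAP5SA and 18.3, 40.7 and 26.5 CPM in Control (log2 fold change 2.74, edgeR adjusted p = 0.0654). The immediate early genes Jun, Fos and Atf3 had log2 fold changes of -2.57, -2.33 and -2.27, each with an edgeR adjusted p of 0.187. Jun was 86.5, 30.3 and 45.4 CPM in YAP5SA and 296, 148 and 236 CPM in Control, without overlap. Timp2, Jun, Fos and Atf3 had each a heart cell class with over 5 times the CM1 level. Mtfp1, a mitochondrial fission gene, had a log2 fold change of -2.54 (adjusted p = 0.212, edgeR), and Tuba8, an alpha tubulin, one of -2.29 (adjusted p = 0.256, edgeR). Of the marker genes, Tnni3 had a log2 fold change of -1.57 ± 0.50 (adjusted p = 0.324, edgeR), Myh6 of -0.49 ± 0.74 and Tnnt2 of -0.31 ± 0.44. Yap1, which encodes YAP, had 14.7, 60.5 and 20.2 CPM in YAP5SA and 11.4, 14.9 and 13.0 CPM in Control (0.66 ± 0.52, adjusted p = 0.618, edgeR); the files do not show whether the transgene's reads were counted under it.

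Markers of other heart cells were present in CM1 of both genotypes. The macrophage list of 10 genes summed to 288, 139 and 837 CPM in YAP5SA CM1 and 18.3, 221 and 86.4 CPM in Control CM1; the groups overlapped, 8 of 8 tested members had positive fold changes, none passed, and the median log2 fold change was 1.91. The smooth muscle list summed to 528, 956 and 877 CPM in YAP5SA and 141, 340 and 123 CPM in Control, without overlap. The fibroblast list summed to 350, 545 and 514 CPM in YAP5SA and 115, 256 and 591 CPM in Control, where the groups overlapped. The endothelial list summed to 547, 66.6 and 338 CPM in YAP5SA and 273, 287 and 350 CPM in Control, also with overlap, and 3 of 6 tested members were positive (median 0.17). No member of the macrophage, fibroblast and endothelial lists was at 0 in all libraries, and the part of these cells in the genotype results was not tested. Without Control tissue-2, 8 of 8 macrophage markers were again positive (median 2.68), with C1qa called, and the fibroblast marker Col3a1 and the smooth muscle markers Acta2 and Cnn1 were called higher in YAP5SA. C1qa, a complement component, had 13.3, 12.1 and 80.7 CPM in YAP5SA and 0.496, 13.5 and 6.13 CPM in Control.

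With Control tissue-2 left out, CM1 of YAP5SA hearts had higher fetal, stress and YAP target transcripts. It had lower transcripts of energy metabolism, those of glycolysis among them. Of 15 fetal and stress genes, 9 rose and none fell, where 4.37% of all genes rose and 5.32% fell (median log2 fold change 2.43, against 0.02 over all genes). One of the 9 was Acta2, smooth muscle alpha actin, which is also on the smooth muscle marker list. It had 431, 799 and 671 CPM in YAP5SA and 32.7, 166 and 32.8 CPM in Control. Myl7 was another, and without the Myl7-rich cells it had 15.4, 19.7 and 23.3 CPM in YAP5SA and 1.49, 17.1 and 2.28 CPM in Control. Myl4, also called, kept a log2 fold change of 4.66 without those cells. The list count and median were not taken again without them. Ankrd1 and Ctgf are also on the YAP target list. Ankrd1, a YAP target and stress gene, had 14079, 18768 and 20804 CPM in YAP5SA and 2343, 15034 and 2065 CPM in Control enriched, Control tissue-2 and Control tissue-3. Its log2 fold change was 2.43 ± 0.37 without Control tissue-2 (edgeR adjusted p = 0.000833) and 1.32 ± 0.67 with it (adjusted p = 0.431). Nppa had 12610, 9227 and 9419 CPM in YAP5SA and 317, 29803 and 169 CPM in the same Control libraries, with log2 fold changes of 5.04 without Control tissue-2 (adjusted p = 6.79e-06) and 0.46 with it (adjusted p = 0.965, both edgeR). Nppa was among the genes that set Control tissue-2 apart, so its p without that library is no test. The YAP5SA values of both genes thus exceeded 2 Control libraries, while Control tissue-2 was within the YAP5SA range for Ankrd1 and above it for Nppa. Nppb, which encodes B-type natriuretic peptide, had 3024, 4042 and 3706 CPM in YAP5SA and 700.5, 8077 and 369.6 CPM in the Control libraries, with log2 fold changes of 2.29 without Control tissue-2 (edgeR adjusted p = 0.00263) and 0.27 with it (adjusted p = 0.942). Acta1, skeletal alpha actin, did not follow that order. It had 3904, 194 and 121 CPM in YAP5SA and 186, 4726 and 155 CPM in Control, so 1 library of each genotype was high, and it passed in neither fit. Myh7, the fetal myosin heavy chain, had 1587, 5191 and 1845 CPM in YAP5SA and 856, 1101 and 418 CPM in Control, without overlap, and also passed in neither fit (log2 fold change 1.40 over 6 libraries, edgeR adjusted p = 0.352).

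Of 22 YAP targets measured, 16 were tested without Control tissue-2. Of these, 7 rose and none fell, where 4.37% of all genes rose. They were Ankrd1, Ctgf, Crim1, Amotl2, Tgfb2, Ajuba and Dlc1; the list median was 1.69. Crim1 had 41.2, 72.6 and 111 CPM in YAP5SA and 9.91, 20.0 and 14.7 CPM in Control, without overlap in all 6 libraries, with log2 fold changes of 1.85 without Control tissue-2 (adjusted p = 0.00972) and 1.87 with it (adjusted p = 0.187, both edgeR). Amotl2 likewise had 45.4, 133 and 166 CPM in YAP5SA and 21.3, 22.5 and 14.2 CPM in Control. Cyr61, a matricellular YAP target, had 172, 230 and 297 CPM in YAP5SA and 243, 279 and 178 CPM in Control and did not pass in either fit.

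Metabolic genes fell in that comparison. Of 45 nuclear respiratory chain genes, 34 fell and none rose (median -1.39), as did 18 of 23 genes of fatty acid uptake and oxidation (median -1.58) and 6 of 8 of the creatine kinase and energy shuttle list. Of 21 glycolysis and pyruvate genes tested, 18 had negative estimates, 6 fell and 0 rose (median -0.83). Over all genes in that fit, 5.32% fell. Cox7a1, a muscle subunit of complex IV, had 1023, 1119 and 882 CPM in YAP5SA and 3034, 876 and 3651 CPM in the Control libraries. Acadm, the medium-chain acyl-CoA dehydrogenase, had 1004, 1143 and 519 CPM in YAP5SA and 3702, 734 and 3848 CPM in the same Control libraries. Their log2 fold changes were -2.28 and -2.61 without Control tissue-2 (edgeR adjusted p = 0.000989 and 0.000833) and -1.81 and -2.11 with it (adjusted p = 0.324 each). All 45 respiratory chain genes had negative estimates also with 6 libraries, where 0 passed and 28 had an unadjusted p under 0.05 (median -1.09). Over all 8216 genes tested there, 4099 had negative estimates and 1090 an unadjusted p under 0.05.

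The contractile genes split. Without Control tissue-2, Tnni3 (-1.91), the ventricular light chains Myl2 (-1.78) and Myl3 (-1.73), and Pln, phospholamban (-1.99), fell, while Ttn (0.43), Tnnt2 (-0.46) and Myh6 (-1.23, edgeR adjusted p = 0.138) did not pass. Rpl3, a ribosomal protein, rose with 605, 472 and 555 CPM in YAP5SA and 69.9, 597 and 82.5 CPM in Control. Its muscle counterpart Rpl3l fell, with 68.4, 78.7 and 40.3 CPM in YAP5SA and 305, 36.0 and 304 CPM in Control. Control tissue-2 sat with the YAP5SA libraries for both genes.

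The 10 genes with the largest rises in that fit were 2200002D01Rik (6.20), the protease inhibitor gene Serpinb1a, the serine protease gene Prss23 (5.78), the surface antigen gene Cd24a, Myl4, Bcr, Nppa, Nmrk2, a nicotinamide riboside kinase (4.67), Sln and Tgfb2, which encodes transforming growth factor beta 2 (4.26). All Sln UMIs of the YAP5SA tissue libraries lay in the Myl7-rich cells, and without those cells Sln was too low to be tested and Myl4 had a log2 fold change of 4.66. Tgfb2 had 85.2, 194 and 222 CPM in YAP5SA and 3.97, 99.6 and 6.13 CPM in the Control libraries. The 10 lowest were the potassium channel subunit gene Kcnip2 (-5.97), Ttll1, Efnb3, the oestrogen receptor gene Esr1 (-4.14), Ces1d, Gm34302, Ano10, Yipf7, Asb14 and Adhfe1 (-3.17). Kcnip2 had 3 UMIs in YAP5SA CM1 against 570 in Control CM1, a Control over YAP5SA ratio of 32.6 (exact counting interval 11.1 to 158). Its level in Control tissue-2 was 2.91 CPM, against 77.3 and 71.1 CPM in the other Control libraries. Esr1 had 76.1, 96.8 and 15.1 CPM in YAP5SA and 841, 34.9 and 727 CPM in Control. Control tissue-2 thus lay with the YAP5SA libraries for Kcnip2, Esr1 and Tgfb2 alike.

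Across the called genes, Control tissue-2 was nearer to the YAP5SA mean than to the mean of the other Control libraries for 266 of 358 genes higher in YAP5SA (74.3%) and 349 of 436 lower ones (80.0%). The resemblance was not particular to CM1. For the same genes in CM2, Control tissue-2 was nearer to the YAP5SA mean for 59.2% of the higher and 68.6% of the lower ones. In CM3 these shares were 72.9% and 68.8%. All these counts describe genes that were called in CM1 without that library and carry no test. Removing the 8 Myl7-rich cells as well gave 810 calls, of which 756 were shared with the 794. Egfp, Mlana and Myl4 were among the exceptions to the resemblance: Egfp had 0 UMIs in CM1 of Control tissue-2, Mlana 1 UMI, and Myl4 lay below every YAP5SA library. For Myl4 this needed the Myl7-rich cells: without them, YAP5SA tissue-2 had 29.1 CPM and Control tissue-2 had 62.9 CPM. By the levels given above, Control tissue-2 also lay below every YAP5SA library for Crim1, Amotl2, Acta2 and Timp2.

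**Figure D5:**
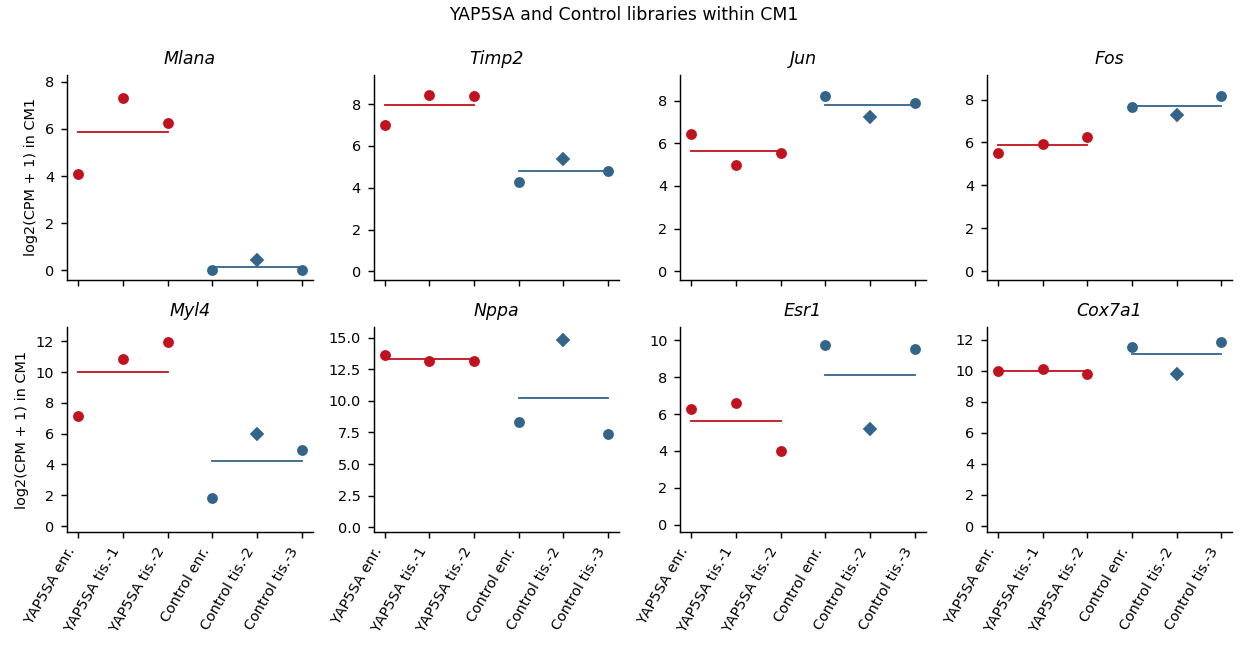
Level of 8 genes in CM1, as log2(CPM + 1), with a point per library, YAP5SA at left (red) and Control at right (blue); the diamond is Control tissue-2 and lines are group means. Control tissue-2 lies with the YAP5SA libraries for Nppa and Esr1 and with the Control libraries for Mlana.

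Cell cycle genes were scarce in CM1. Of 30 S and G2/M phase genes measured, 5 were tested with 6 libraries and 6 without Control tissue-2. Mki67, a nuclear protein of dividing cells, had 9, 3 and 5 UMIs in YAP5SA and 1, 4 and 2 UMIs in Control, or 6.28, 18.2 and 25.2 CPM in YAP5SA against 0.496, 1.45 and 0.350 CPM in Control. Top2a, the topoisomerase of dividing cells, had 12, 2 and 2 UMIs in YAP5SA and 0, 3 and 3 UMIs in Control. Both rose without Control tissue-2 (edgeR adjusted p = 0.00713 for Mki67 and 0.0159 for Top2a) and neither passed with it (0.204 and 0.306). The macrophage marker sums in CM1, given above, were 139 to 837 CPM in YAP5SA and 18.3 to 221 CPM in Control, and their part was not tested.

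Preparation had no called effect on CM1. Between enriched and tissue libraries, edgeR called 0 genes higher (0%) and 0 lower (0%) of 8216, with 161 at an unadjusted p under 0.05, and DESeq2 called 5 lower. The smallest p downwards belonged to Myl4, at 141 and 2.48 CPM in the enriched libraries and 1821, 3893, 62.9 and 30.3 CPM in the tissue libraries (log2 difference -4.08, edgeR adjusted p = 0.515), followed by Myl7, Ccl2, Col3a1 and Gm3272. Upwards they were Gm5276, Gm5256, Gm10036, Aldoart1 and Gm5560, with differences of 1.68 to 3.34, and none passed. The Myl7-rich cells described above all lay in tissue libraries. Without them, Myl4 had 141 and 2.48 CPM in the enriched libraries. In YAP5SA tissue-1, YAP5SA tissue-2, Control tissue-2 and Control tissue-3 it then had 184, 29.1, 62.9 and 3.51 CPM. All 8 tested fibroblast markers were lower in the enriched libraries (median -1.21), and none passed.

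The interaction of genotype with cluster, CM1 against the other clusters, was called for 141 genes. It was tested with edgeR on CM1 against the sum of CM2 and CM3 with the library as a block. The clusters were drawn from these same transcripts, and cells placed in YAP5SAcm were left out. The p-values of the interaction therefore cannot tell a changed level from a changed placing of cells. A positive value means that CM1 relative to the other clusters was higher in YAP5SA than in Control. Of 7441 genes, 75 were positive (1.01%) and 66 negative (0.887%); DESeq2 called 53 in all. Leaving out 1 library gave 67 calls without Control enriched, 67 without Control tissue-3, 87 without YAP5SA enriched and 208 without YAP5SA tissue-2. Atp2a2 had an interaction of 1.16 ± 0.17, Myh6 of 0.92 ± 0.18 (adjusted p = 0.00102), Mybpc3, the myosin binding protein, of 0.92 ± 0.18, Ttn of 1.22 ± 0.23, Ryr2 of 1.07 ± 0.20 and Pln of 0.76 ± 0.18. These 6 passed, and Tnni3 (0.56, adjusted p = 0.0934) and Tnnt2 (0.14) did not. Among lists, 4 of 11 thick filament genes and 4 of 14 calcium genes were positive calls.

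More interactions were called against CM2 alone than against CM3 alone, in alternatives chosen after seeing the data; whether the counts differ was not tested. Against CM2 alone, 145 of 4319 genes were positive (3.36%) and 67 negative (1.55%). Against CM3 alone, 3 of 6248 were positive (0.048%) and 1 negative (0.016%), namely Hbb-bs, Tacc2 and Txnip upwards and Abhd17c downwards. Against CM2, 7 of 11 thick filament genes, 9 of 14 thin filament and Z-disc genes, 7 of 14 calcium genes, 7 of 9 mitochondrially encoded genes, 9 of 45 respiratory chain genes and 9 of 23 fatty acid genes were positive calls. Xirp2, a Xin-repeat actin-binding protein, had the smallest p there; it had 656, 315 and 560 CPM in YAP5SA CM1 and 289, 494 and 180 CPM in Control CM1, and in CM2 158, 107 and 228 CPM in YAP5SA and 323, 763 and 215 CPM in Control. Its interaction was 2.46 ± 0.28 (edgeR adjusted p = 4.59e-10). Of the 141 genes called against both clusters, 88 (62.4%) were also called against CM2 alone, where they made up 41.5% of the calls. For Xirp2, CM2 was below CM1 in every YAP5SA library and above it in every Control library. mt-Cytb, cytochrome b of complex III, had an interaction of 1.23 ± 0.21 against CM2 (adjusted p = 3.72e-05, edgeR). Against CM3 alone its interaction was -0.83 and did not pass. There, 7 of 9 mitochondrially encoded genes were negative (median -0.75) and 0 were called. Against CM2, Tnni3 had an interaction of 1.03 ± 0.21 (adjusted p = 0.000443, edgeR), while Myh6 had one of 1.72 ± 0.67 that did not pass (adjusted p = 0.292, edgeR). The CM2 sums of the YAP5SA tissue libraries were thin, and CM1 cells were deeper than CM2 cells in every library of both genotypes. The part of these in the contrasts was not tested.

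Among the 5 interactions of smallest p, those of Taf7 and Hbb-bs rested on 1 library each. Cobl, an actin nucleator, had 48.9, 48.4 and 50.4 CPM in YAP5SA CM1 and 11.9, 36.0 and 13.8 CPM in Control CM1. In CM2 it had 623, 645 and 285 CPM in YAP5SA and 5.48, 42.4 and 13.2 CPM in Control, so all 3 YAP5SA libraries were high in CM2 and the interaction was -2.71 ± 0.36. Txnip, the thioredoxin-interacting protein, had an interaction of 1.47 ± 0.21, with 183, 545 and 540 CPM in YAP5SA CM1 and 300, 75.3 and 215 CPM in Control CM1. Taf7, a subunit of the general transcription factor TFIID, had an interaction of -2.94 that rested on 375 CPM in CM2 of the YAP5SA enriched library, against 0 and 56.9 CPM in CM2 of the other YAP5SA libraries. Without the YAP5SA enriched library it was -0.40. Hbb-bs, a beta globin of red blood cells, had 86.5, 0 and 0 CPM in YAP5SA CM1 and 0, 1.45 and 10.3 CPM in Control CM1, and is more than 5-fold below another class; its value of 4.12 reversed to -0.85 without Control tissue-3.

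Egfp, a feature named for the green fluorescent reporter, was counted in 4 libraries. It had a UMI in 10 of 34 and 12 of 27 CM1 cells of the YAP5SA tissue libraries (29.4% and 44.4%) and in 0 of 537 and 0 of 312 CM1 cells of the Control enriched and Control tissue-2 libraries. In levels these were 151 and 777 CPM in the YAP5SA libraries. Over both YAP5SA tissue libraries the share was 36.1% of CM1 cells, 31.8% of CM2, 8.43% of CM3 and 24.8% of YAP5SAcm cells. In cells outside the cardiomyocyte classes it was 7.22% of endothelial cells, 2.90% of CF3 fibroblasts and 1.23% of Mac1 macrophages, so the share in endothelial cells was close to that in CM3. Median depth in those libraries was 4525.5 and 5416 UMIs in CM1 against 1094 and 1150 UMIs in endothelial cells and 1129 and 1326 UMIs in Mac1, so the shares are not at equal depth. Egfp levels were 68.3 and 50.8 CPM in endothelial cells and 12.8 and 6.49 CPM in Mac1, below those in CM1 in both libraries.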

How the data were processed

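Drop-seq libraries of adult mouse hearts were analysed from the authors' deposited table of raw UMI counts per gene and cell and the authors' deposited annotation of each cell. Picard, STAR and Seurat 2.3.4 are named in the submitters' processing notes; genome build, cell filters and doublet treatment are not given in the sources used here. The deposited annotation also held the mitochondrial share of each cell as a fraction and the authors' cell cycle score values. Joined gene names (864) were merged into 647 families, leaving 21196 features. Counts of CM1, CM2 and CM3 were summed per library and tested by robust quasi-likelihood F tests (edgeR 4.0.16, R 4.3.3) with TMM scaling, the filterByExpr filter and Benjamini-Hochberg adjustment at 0.05; DESeq2 1.42.0 was an alternative. CM1 against CM2 or CM3 was described by mean log2 CPM differences. Shares were compared by exact permutation within preparations. Intervals cover counting error only. The libraries held 3382656 to 13483791 UMIs. The fits were tested on simulated counts with known changes. The simulated libraries had a common spread and none stood apart. That test therefore cannot show how the fits handle a library such as Control tissue-2. Named genes were the 12 highest and 12 lowest cluster differences with 1 sign in every library, the 10 largest called changes each way (or the 5 of smallest p where fewer than 5 passed), and the 5 of smallest interaction p; genes more than 5-fold below another class were left out of the largest or said to be so, and 1 gene that the rule names is not reported here. CM1, the gene lists and the markers were chosen with earlier results of these data known. Leaving out each library, other scalings, filters and cell choices were the alternatives tried.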

Additional observations from a re-analysis of the deposited data

Results flagged for a closer look

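A test of the difference between the genotype effect in CM1 and that in CM2 and CM3 picked out 141 genes. The clusters were drawn from the same transcripts, so these calls do not tell changed levels from changed placing of cells. The 5 of smallest p were Taf7 (-2.94), Cobl (-2.71), Hbb-bs (4.12), Txnip (1.47) and Atp2a2 (1.16), where a positive log2 value means that CM1 relative to the other clusters was higher in YAP5SA than in Control. Cobl and Atp2a2 kept their sign and their call in all leave-one-out fits, with ranges of -2.99 to -1.94 for Cobl and 1.10 to 1.25 for Atp2a2. Txnip ranged over 1.32 to 1.86. Taf7 ranged over -3.08 to -0.40 and lost its call without the YAP5SA enriched library, and Hbb-bs ranged over -0.85 to 4.28.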

How the results depend on the processing

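The count of genes called between YAP5SA and Control in CM1 was 2 and moved with nearly every choice: it was 331 with no filter beyond 1 count, 93 with DESeq2, 0 without the covariate, 1 with equal cell numbers, 1 in cells free of fibroblast and macrophage markers, 1 without the Myl7-rich cells and 810 without those cells and Control tissue-2, and ranged from 0 to 794 when 1 library was left out. It was 0 without YAP5SA enriched, YAP5SA tissue-1, YAP5SA tissue-2 or Control enriched. The preparation count was 0 and became 11 with no filter, 5 with DESeq2 and 3 in the marker-free cells, with 0 to 3 on leaving out a library. The interaction count was 141 and became 53 with DESeq2, 74 in the marker-free cells, 212 against CM2 alone and 4 against CM3 alone, with 67 to 208 on leaving out a library; the lowest counts came without Control enriched and without Control tissue-3. The cluster contrast gave 52 genes, 472 at a size of 0.58, 279 with no filter on the level, and 53 to 78 on leaving out a library. Directions reversed for Myh6 by genotype (0.019 with library totals alone, and -1.23 to 0.32 on leaving out a library, positive at 0.29 without YAP5SA enriched and at 0.32 without Control enriched), for Tnnt2 by genotype (0.13 with totals alone), for Myh6 by preparation (-1.28 without Control enriched, -0.33 without Control tissue-2; highest 1.44), for Myl4 by preparation (0.91 in the marker-free cells), and for Hbb-bs (-0.41 with DESeq2, -0.85 without Control tissue-3; highest 4.28). The difference in mitochondrial percentage, -0.67 points, reversed to 0.046 without YAP5SA tissue-1, 0.74 without Control tissue-3 and 0.14 on summed counts, with a lowest value of -2.73. The cause was not tested. The CM1 share difference stayed between -41.6 and -37.3 points on leaving out a library. No paired analysis was possible because the deposited columns number the YAP5SA tissue libraries 1 and 2 while the labels number them 2 and 3, so the numbers do not join the libraries across genotypes. The thin CM1 sums of YAP5SA tissue-1 (165283 UMIs) and YAP5SA tissue-2 (198324 UMIs) limit what low transcripts can show.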

Other observations

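Mruby2-2, a feature named for a red fluorescent protein, was counted in 4 libraries. In CM1 it had a UMI in 7 of 34 and 3 of 27 cells of the YAP5SA tissue libraries (20.6% and 11.1%) and in 212 of 537 and 70 of 312 cells of Control enriched and Control tissue-2 (39.5% and 22.4%). In CF3 fibroblasts it had a UMI in 0.163% and 0.106% of cells in the same YAP5SA libraries and in 0.255% of cells in Control tissue-2, at median depths of 1239, 1937 and 1242 UMIs. The labels used here do not say which animals carried a red reporter. Median depth in CM1 was 4525.5 and 5416 UMIs in the YAP5SA tissue libraries and 3516 and 7752 UMIs in Control enriched and Control tissue-2.

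The authors' phase calls placed 1.65%, 2.94% and 7.41% of CM1 cells of the YAP5SA libraries and 1.49%, 0.321% and 0.517% of CM1 cells of the Control libraries in S or G2/M phase, which were 3, 1 and 2 cells in YAP5SA and 8, 1 and 3 cells in Control. CM2 cells, which were shallower, were called so in 13.0%, 10% and 26.9% of cells in YAP5SA and 6.99%, 5.71% and 10.1% in Control. The calls rest on cells of unequal depth and are given as values only.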
